A study of Mus musculus with 15 samples.

Results

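Pancreatic beta cells are not complete at birth. In the weeks after it they switch off genes of the immature state and switch on genes of regulated insulin release, and the set described here follows that change in islets of NOD mice. It holds 8 genes out of the 48709 with a row in the deposited counts. 5 of them are known to rise as mouse beta cells mature: Ucn3, Syt4, Esrrg, Gjd2 and Trpm5. The other 3 (Npy, Nnat and Igf2) are known to be high in fetal or neonatal islets and to fall afterwards. Each gene was taken by its name in the table, whatever its values. All 8 passed the filter on low counts that left 16554 genes for testing.

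RNA was sequenced from islets of 15 female mice of genotype NOD, the non-obese diabetic strain, whose islets are invaded by leukocytes before diabetes appears. There were 3 untreated mice at each of 5 ages, 4, 6, 8, 10 and 12 weeks (4W to 12W), and the youngest were thus already past weaning. Islets were freed with collagenase and hand-picked, and they were not sorted, so each sample held every cell type inside or attached to the islets. The series followed the islet transcriptome over the weeks that precede diabetes, and the comparisons below were 12 with 4 weeks and each age with the one before. Every group was of the same strain and sex, and no other strain was sampled, so an effect of age and an effect of the disease cannot be told apart. In such bulk samples, fewer cells of a type and less RNA per cell cannot be told apart either.

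Maturation runs on for several weeks in the mouse. Glucose responsiveness is acquired through changes in metabolism, in the calcium sensitivity of exocytosis, in electrical coupling and in paracrine feedback, and members of the set belong to each of these. Ucn3 encodes urocortin 3, a peptide released with insulin that acts on delta cells and is a widely used marker of mature mouse beta cells. Syt4 encodes a synaptotagmin that lowers the calcium sensitivity of insulin granule release. Esrrg encodes ERR gamma, a nuclear receptor for genes of oxidative metabolism. Gjd2 encodes connexin 36, the gap junction channel that couples beta cells, and Trpm5 a calcium-activated cation channel. Npy encodes neuropeptide Y, Nnat the imprinted neuronatin, and Igf2 the imprinted insulin-like growth factor 2, a fetal growth factor whose gene lies next to Ins2.

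The upstream sequences of 3 members are shown because their RNAs differed in level or change below. Nnat fell most, Ucn3 was the most abundant, and Gjd2 differed little between the youngest and oldest mice relative to general endocrine genes. Each sequence is the 250 bases before the RefSeq transcription start, 5′ to 3′ on the strand of the gene (GRCm38.p6). Nnat lies at chr2:157559828-157560077 on the plus strand, Gjd2 at chr2:114013620-114013869 on the minus strand and Ucn3 at chr13:3945350-3945599 on the minus strand. Capitals mark every CG pair (CpG), the site of DNA methylation.
Nnat: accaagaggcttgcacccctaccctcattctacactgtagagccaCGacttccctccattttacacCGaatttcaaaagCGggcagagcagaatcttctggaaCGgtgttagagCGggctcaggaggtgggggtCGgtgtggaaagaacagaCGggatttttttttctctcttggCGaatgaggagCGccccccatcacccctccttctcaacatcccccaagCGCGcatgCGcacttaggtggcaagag
Gjd2: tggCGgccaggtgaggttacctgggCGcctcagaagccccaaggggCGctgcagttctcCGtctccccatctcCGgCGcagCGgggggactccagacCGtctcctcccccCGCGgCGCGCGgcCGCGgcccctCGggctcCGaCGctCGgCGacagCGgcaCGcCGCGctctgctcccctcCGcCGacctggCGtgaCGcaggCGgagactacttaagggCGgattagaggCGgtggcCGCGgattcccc
Ucn3: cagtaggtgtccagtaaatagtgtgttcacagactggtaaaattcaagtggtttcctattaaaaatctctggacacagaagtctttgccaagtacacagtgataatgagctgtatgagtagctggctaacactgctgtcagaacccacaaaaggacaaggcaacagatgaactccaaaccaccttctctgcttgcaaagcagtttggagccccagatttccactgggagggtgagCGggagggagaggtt
The Gjd2 window held 33 CpG, that of Nnat 12 and that of Ucn3 1, against a median of 6 over all 32851 windows of this length. Fewer CpG than Gjd2 were found in 96.0% of these windows, fewer than Nnat in 66.5% and fewer than Ucn3 in 7.87%. The GC content was 74.0%, 54.8% and 46.4%, in that order. A total of 6 motifs were searched on both strands, namely the TATA box as TATAAA, the CCAAT box under its own letters, the GC box as GGGCGG, the E-box as CANNTG, the response element of estrogen-related receptors as TCAAGGTCA and the cyclic AMP response element as TGACGTCA. The Gjd2 window held GGGCGG once (32.7% of all windows) and CANNTG once (66.2%), and the Ucn3 window held CANNTG at 2 places. None of the 6 was found in the Nnat window, which says only that these letters are not there. RefSeq starts were in the table for 7 of the 8 members. A match describes letters, and neither binding nor methylation was measured.

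Per length, Ucn3 was the highest member at every age, and none of its mice overlapped those of the next gene. Its TPM, a level corrected for gene length and library total within a sample, had medians of 541 at 4 weeks, 752 at 8 weeks and 501 at 12 weeks. Npy came second, with medians of 206 at 4 weeks and 178 at 12 weeks. Gjd2 followed with 184 and 121, and the ranges of Npy and Gjd2 overlapped at 4, 8 and 10 weeks but not at 6 or 12.

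The middle of the order turned round with age. At 4 weeks Nnat had a median of 96.9 TPM (89.7 to 129) and Syt4 66.5 (58.5 to 77.6), with Nnat higher in each of the 3 mice. At 12 weeks Syt4 had 65.7 (59.9 to 70.9) and Nnat 36.9 (28.2 to 43.4), with Nnat lower in each. Their ranges overlapped at 6 and 8 weeks and were apart again at 10, and from 8 weeks on Nnat also overlapped Trpm5 (22.5 to 36.1 at 12 weeks). Esrrg and Igf2 were the lowest, with medians of 4.07 and 2.64 at 4 weeks. Those ranges overlapped at 10 and 12 weeks. The rank of each member at each age was the same on the deposited RPKM.

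Comparisons between ages used CPM, counts set against the TMM-scaled library total, and edgeR's quasi-likelihood test, with p-values adjusted over all 16554 genes, and a gene was called at an adjusted p under 0.05. All 8 members were called for a difference between any of the 5 ages, against a background of 56.0% of genes, and adjusted p ran from 9.9e-04 for Gjd2 to 0.042 for Npy. The count was 5 with the 8-week replicate 1 or the 12-week replicate 3 left out, without the share of all genes in those fits beside it. Leaving aside Syt4, Trpm5 and Npy, the plot of CPM by mouse shows 3 courses. Nnat had a lower mean at every step. Ucn3, Gjd2 and Esrrg had a plateau to 8 weeks and lower values at 10 and 12. Igf2 was low, with somewhat higher values at 10 and 12 weeks.

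**Figure D1:**
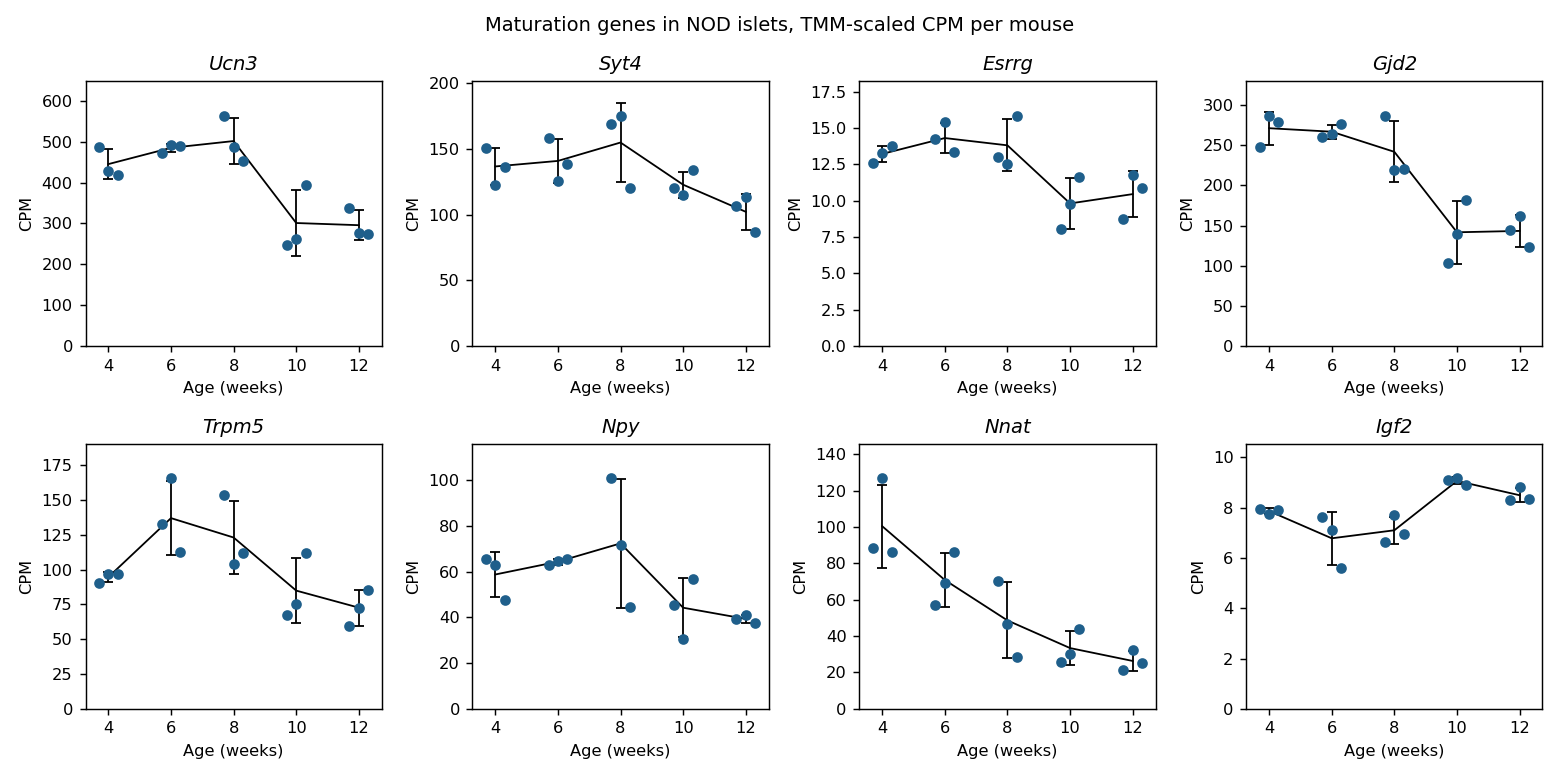
CPM (vertical axis, from 0) of each maturation gene against age in weeks. Points are single mice, 3 at each age and set apart sideways by replicate number, and the line with bars gives the mean and SD. Nnat falls from 100.4 to 26.3 between 4 and 12 weeks, and Gjd2 drops between 8 and 10 weeks from 242 to 142.

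Between 4 and 12 weeks of age, 4 of the 8 members were called lower (Nnat, Gjd2, Ucn3 and Syt4) and 0 higher. This stood against 27.2% of all genes called lower and 26.3% called higher. The groups did not overlap for any member, with 7 lower and 1 (Igf2) higher at 12 weeks, where 33.9% of all genes lay wholly lower and 30.3% wholly higher. The median log2 fold change was -0.50 over the members and -0.05 over all genes tested. With library totals in place of TMM every log2 fold change between these ages moves up by 0.245, and the genes called were 6556 higher and 1820 lower in place of 4357 and 4501. Among the 5 genes that rise with maturation the median was -0.42, and among the 3 that fall with it -0.58.

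Nnat changed most. Its CPM was 88.5, 127 and 86.0 at 4 weeks, 57.1, 68.9 and 86.5 at 6, 70.4, 46.8 and 28.6 at 8, 25.9, 30.4 and 43.8 at 10, and 21.5, 32.5 and 24.99 at 12. Neighbouring ages overlapped, while every mouse at 10 and 12 weeks was below every mouse at 4 and 6. The mean went from 100.4 ± 22.9 (SD, n = 3) to 26.3 ± 5.62, a 3.82-fold decrease (log2 fold change -1.93 ± 0.31 SE, edgeR adjusted p = 4.8e-04). Only 0.266% of genes had a lower log2 fold change. None of the 4 steps was called, with log2 fold changes of -0.50, -0.54, -0.54 and -0.34 in order of age.

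Nnat occupies chr2:157560078-157562522 on mm10 and lies inside Blcap, an imprinted gene on the opposite strand. Whether reads were assigned by strand is not given in the sources used here, so reads of the pair may have been shared. Blcap had about as many counts over the 15 mice, 24385 against 23678. It fell less, by 0.38 on the log2 scale from 4 to 12 weeks (adjusted p = 0.0026), and the ratio of Nnat to Blcap counts went from 1.40 to 1.98 at 4 weeks down to 0.465 to 0.633 at 12. Of the 12 imprinted genes listed besides Nnat and Igf2, 9 were called lower (led by Ndn at -0.84 and Grb10 at -0.76) and 0 higher at 12 weeks, against 27.2% and 26.3% of all genes. Counts were 8 and 0 on library totals. With 12 endocrine genes set equal, a scale explained below, 4 were called higher and 0 lower, so the direction of the calls depended on the scale. On that scale 80.3% of all genes were called higher and 0.876% lower, so the share of these 12 called higher was below that of all genes.

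Npy and Igf2, the other members of the immature state, differed less between ages. Npy had 65.6, 62.9 and 47.7 CPM at 4 weeks, 62.9, 64.6 and 65.5 at 6, 101, 71.8 and 44.4 at 8, 45.3, 30.7 and 56.6 at 10, and 39.2, 41.2 and 37.5 at 12. Its values spread widest at 8 weeks, where the lowest mouse was below all of those at 4 and 6 weeks. The log2 fold change from 4 to 12 weeks was -0.58 ± 0.26 SE and was not called (adjusted p = 0.072).

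Igf2 stayed low throughout. It had 7.93, 7.74 and 7.92 CPM at 4 weeks, 7.65, 7.10 and 5.60 at 6, 6.64, 7.70 and 6.96 at 8, 9.12, 9.17 and 8.91 at 10, and 8.30, 8.83 and 8.36 at 12. All 6 mice at 10 and 12 weeks were above all 9 younger mice. The difference between 12 and 4 weeks was 0.11 ± 0.11 SE on the log2 scale (adjusted p = 0.43), and that between 10 and 8 weeks was 0.35 (adjusted p = 0.052). On library totals the 12 to 4 week difference was called higher at 0.36 (adjusted p = 0.026). The counts behind it were 142 to 365 per mouse.

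Gjd2 had the second largest decrease. Its CPM was 248, 287 and 279 at 4 weeks, 260.1, 263 and 277 at 6, 286, 219.5 and 219.9 at 8, 103, 140.1 and 181 at 10, and 145, 162 and 123 at 12. Each mouse at 10 and 12 weeks was below each younger mouse. The mean went from 271 ± 20.5 (SD, n = 3) to 143 ± 19.6, 1.89-fold lower (log2 fold change -0.92 ± 0.17 SE, adjusted p = 0.0010). An antisense gene, A530058N18Rik_1, overlaps the 5′ end of Gjd2, with 14457 counts against 91884.

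Ucn3 followed a similar plateau and drop. It had 488, 428 and 419 CPM at 4 weeks, 474, 493 and 489 at 6, 564, 487 and 454 at 8, 248, 262 and 393 at 10, and 338, 276 and 274 at 12. No mouse at 10 or 12 weeks reached the lowest value of the younger ages. The log2 fold change from 4 to 12 weeks was -0.59 ± 0.16 SE (1.51-fold lower, adjusted p = 0.0068), and on library totals it was -0.35 and not called (adjusted p = 0.062).

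Syt4 and Esrrg had smaller differences. Syt4 had 151, 123 and 136 CPM at 4 weeks, 159, 126 and 138 at 6, 169, 175 and 120.0 at 8, 119.9, 115 and 134 at 10, and 107, 113 and 86.6 at 12. Only at 12 weeks were all 3 mice below those at 4 weeks. The log2 fold change was -0.42 ± 0.15 SE (adjusted p = 0.029), and the call was lost without the 4-week replicate 1 (adjusted p = 0.10), the 4-week replicate 3 (0.063) or the 12-week replicate 3 (0.12). On library totals it was -0.18 (adjusted p = 0.29).

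Esrrg had 12.6, 13.3 and 13.8 CPM at 4 weeks, 14.2, 15.4 and 13.3 at 6, 13.0, 12.6 and 15.9 at 8, 8.07, 9.77 and 11.6 at 10, and 8.72, 11.8 and 10.8 at 12. Again the mice at 10 and 12 weeks lay below all the younger ones. The log2 fold change from 4 to 12 weeks was -0.34 ± 0.15 SE and was not called (adjusted p = 0.068), though it was without the 12-week replicate 2 (adjusted p = 0.042).

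Trpm5 was the only member whose 3 mice at 6 weeks were all above those at 4 weeks in CPM, as were those of 8.34% of all genes. It had 90.5, 96.6 and 96.9 CPM at 4 weeks, 133, 166 and 113 at 6, 153, 104 and 112 at 8, 67.7, 75.5 and 112 at 10, and 59.9, 72.6 and 85.6 at 12. The 6 to 4 week difference was 0.53 ± 0.21 SE on the log2 scale, with an unadjusted p of 0.022 in the edgeR fit and an adjusted p of 0.45. The 12-week mice were below the 4-week mice, by a log2 fold change of -0.38 that was not called (adjusted p = 0.14). Trpm5 also marks tuft cells. Of their 4 other markers, Pou2f3 had at most 5 counts and Il25 at most 2 in any mouse. Dclk1 rose between 4 and 12 weeks by 1.76 on the log2 scale (adjusted p = 4.4e-04), and Gnat3, with at most 19 counts in any mouse, had a log2 fold change of -1.51 (adjusted p = 0.088). Tssc4, on the opposite strand, overlaps the 3′ end of Trpm5 with 32004 counts against 45108.

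Of the 4 steps between neighbouring ages, that from 8 to 10 weeks had called members, and differences between the steps were not tested. In that interval 3 of the 8 members were called lower and 0 higher: Ucn3 (log2 fold change -0.74 ± 0.16 SE, adjusted p = 0.024), Gjd2 (-0.77 ± 0.17, adjusted p = 0.025) and Esrrg (-0.49 ± 0.15, adjusted p = 0.041). Of all genes, 8.37% were called lower and 8.40% higher. This call was fragile. With the 8-week replicate 1 or 2 or the 10-week replicate 1 or 2 left out, 0 members and 0 genes in all were called. Without the 10-week replicate 3 the members called were 6, a count without the share of all genes beside it. The other steps gave 0 called members. For 6 against 4 weeks the background was 0.0906%, and 1 member (Trpm5) and 8.67% of genes had an unadjusted p under 0.05. For 8 against 6 weeks edgeR called 0 of all genes (18.0% at an unadjusted p under 0.05) and for 12 against 10 weeks also 0 (7.52%), and in both 0 members had an unadjusted p under 0.05. DESeq2 called 0 members in these 3 steps, and 249, 543 and 12 genes in all.

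The drop of the members ran beside a change in the makeup of the samples. Of the 11 leukocyte markers with a row in the table, 11 rose between 4 and 12 weeks. Their CPM summed to between 35.8 and 191 at 4 weeks. The sum lay between 136 and 822 at 8 weeks, between 831 and 1974 at 10 weeks, and between 1654 and 1928 at 12. All 6 mesenchymal markers rose as well, with a summed CPM of at most 521 at 4 weeks and at least 1175 at 12. All 5 beta cell markers fell, with a median log2 fold change of -0.82, and so did all 5 alpha cell markers (-1.46). Over the 15 mice the Pearson correlation with the mean log2 CPM of the leukocyte markers was -0.87 for Gjd2 and Nnat and -0.56 to -0.72 for Ucn3, Syt4, Esrrg, Trpm5 and Npy, and it was 0.47 for Igf2. After the age means were subtracted it was weaker for these 7 genes, from -0.55 for Trpm5 and -0.49 for Gjd2 to -0.25 for Ucn3 and -0.14 for Esrrg. For Igf2 it then had the opposite sign, at -0.32. These are descriptions over mice that share age and scaling. With the leukocyte marker mean of each mouse as a covariate, 0 members and 0 genes in all were called between 12 and 4 weeks. That marker mean rose with age. In that fit the log2 fold change was -1.37 ± 0.56 SE for Nnat, -0.41 ± 0.30 for Gjd2, -0.36 ± 0.30 for Ucn3, -0.23 ± 0.30 for Esrrg, -0.16 ± 0.28 for Syt4 and -0.10 ± 0.47 for Npy. Igf2 had 0.27 ± 0.24, and Trpm5 changed sign to 0.32 ± 0.35. The part of these cells in the members' decrease was not tested further. The 6-week replicate 2 and the 12-week replicate 1 also carried intestinal transcripts (summed CPM of 8 markers at least 100.02, against at most 84.1 in the other mice), and without both the Syt4 change was -0.45 (adjusted p = 0.0502).

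To compare the members with other transcripts of endocrine cells, the counts were also scaled so that 12 general endocrine genes (granins, secretory enzymes and transcription factors such as Chga, Pam and Pax6) had the same mean log2 level in each mouse. On TMM-scaled values 11 of these 12 were called lower at 12 than at 4 weeks and 0 higher, with a median of -0.88. The 12 did not move alike. On the scale they set, edgeR still called Chgb higher at 12 than at 4 weeks (0.70, adjusted p = 0.0035) and Insm1 lower (-0.21, adjusted p = 0.020). This scaling moves each log2 fold change between 12 and 4 weeks up by 0.85, and that between 10 and 8 weeks by 0.45. Nearly all genes therefore shift upward: 80.3% were called higher and 0.876% lower. The members were 5 higher and 1 lower, so the share called higher was below that of all genes.

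**Figure D2:**
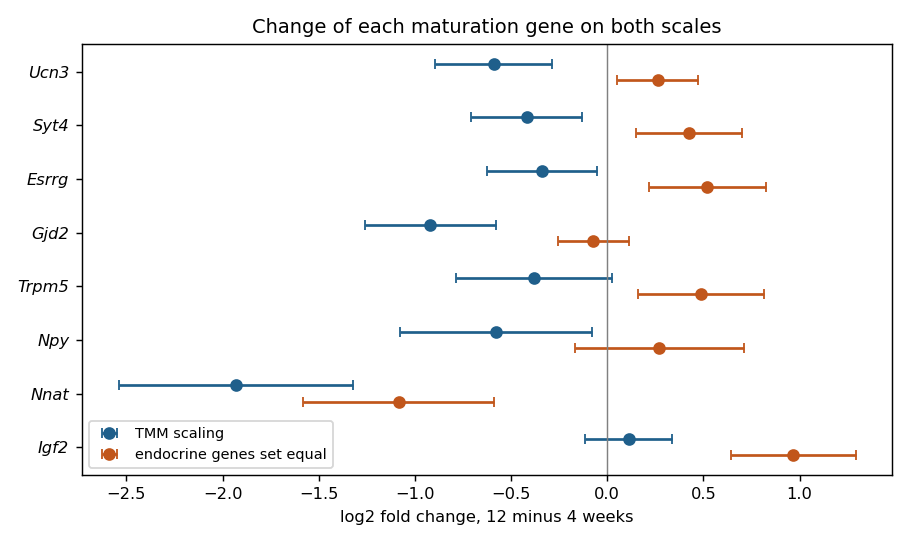
Log2 fold change, 12 minus 4 weeks, of each maturation gene on the TMM scale (blue) and with 12 endocrine genes set equal (orange). Points are edgeR estimates from 3 mice per age, and the vertical line marks 0. Bars are 95% intervals by a normal approximation, slightly narrower than the test would give. Nnat lies below 0 on both scales, Gjd2 at -0.07 on the endocrine scale, and Ucn3, Syt4, Esrrg, Trpm5 and Npy lie on different sides of 0 on the 2 scales.

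Nnat was the member called lower relative to the endocrine genes. Its level on this scale was 69.3, 97.6 and 63.5 at 4 weeks and 28.7, 41.6 and 38.3 at 12, with every mouse lower at 12 weeks. The log2 fold change was -1.08 ± 0.25 SE (adjusted p = 0.0015), and it stayed called, between -1.32 and -0.87, in all 12 alternatives run, which left out each mouse of the 2 ages in turn or changed the filter, the block or the reference genes. Relative to the endocrine genes, its mean level was 76.8 at 4 weeks, 43.6 at 8 and 36.2 at 12, and no single step was called.

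Gjd2 was not called relative to the reference between 4 and 12 weeks. It was called on this scale for a difference between any ages (edgeR adjusted p = 0.028). Its level was 194, 221 and 206 at 4 weeks and 194, 208 and 188 at 12, overlapping. The log2 fold change was -0.07 (edgeR adjusted p = 0.48). The 95% interval by a normal approximation, slightly narrower than the test would give, was -0.26 to 0.11. Between 8 and 10 weeks it was called lower on this scale too (-0.34, adjusted p = 0.014), as was Ucn3 (-0.30, adjusted p = 0.034), and Igf2 was called higher (0.81, adjusted p = 0.0094). Of all genes, 0.296% were called lower and 50.2% higher in that step. Over the 15 mice, Gjd2 had the highest correlation of the 8 with the mean of the endocrine genes (Pearson r = 0.97, and 0.93 after subtracting the age means). Nnat (0.91) and Ucn3 (0.88) followed, while Igf2 had -0.61. After the age means were subtracted, Ucn3 had 0.77, Nnat 0.64 and Igf2 6.9e-04. These values are descriptions over mice that share age and library scaling.

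Syt4, Esrrg, Trpm5 and, in a call that most alternatives lost, Ucn3 were called higher at 12 weeks relative to the endocrine genes. On the endocrine scale their log2 fold changes from 4 to 12 weeks were 0.42 ± 0.14 SE (adjusted p = 0.013) for Syt4, 0.52 ± 0.16 (0.0075) for Esrrg, 0.49 ± 0.17 (0.016) for Trpm5 and 0.26 ± 0.11 (0.038) for Ucn3. That is 4 of the 5 genes that rise with maturation, next to 80.3% of all genes called higher on this scale, and these 4 values lie below the median of all genes, 0.81. The mean of each of the 4 was already above its 4-week mean at 6 and 8 weeks on this scale, though no step to 8 weeks was called for them. Trpm5 had means of 72.3 at 4 weeks, 111 at 6 and 101 at 12. Ucn3 had 341 at 4 weeks, 460 at 8, 373 at 10 and 408 at 12. Of 12 other genes of mature beta cells 3 were called higher and 1 lower, with a median of -0.02. The Ucn3 call was lost without the 4-week replicate 2 (adjusted p = 0.0998), the 4-week replicate 3 (0.15), the 12-week replicate 1 (0.16) or the 12-week replicate 3 (0.094), and its groups overlapped. In all, 8 of the 12 alternatives run lost the Ucn3 call (adjusted p up to 0.86). The Syt4 call was lost without the 4-week replicate 2 (0.057) and that of Trpm5 without the 12-week replicate 3 (0.11). With the other mature beta cell genes as the reference, none of these 4 was called (log2 fold changes 0.02 to 0.29), and Gjd2 was called lower (-0.31, adjusted p = 0.024).

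Igf2 was 0.97 ± 0.17 SE higher at 12 than at 4 weeks on the endocrine scale (adjusted p = 2.0e-04), against a median of 0.81 over all genes. Npy was not called (0.27 ± 0.22, adjusted p = 0.28). The plot of levels on the endocrine scale shows Nnat parting downward from the rest by 8 weeks and Igf2 upward at 10.

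**Figure D3:**
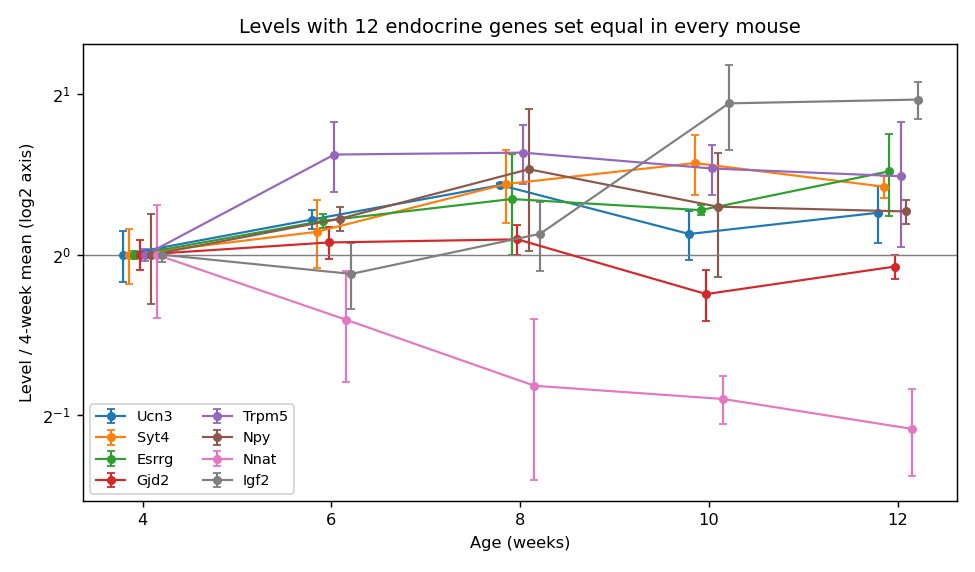
Level of each maturation gene divided by its 4-week mean (log2 vertical axis) against age in weeks, with 12 endocrine genes set equal in every mouse. Points are means of 3 mice, bars their SD, and small sideways shifts separate the genes. Gjd2 is the closest to 1 at 12 weeks, Nnat lies below it from 6 weeks on, and Igf2 rises at 10 weeks.

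Ratios of counts within a mouse need no scaling at all. Between 3.38 and 5.52 counts of Ucn3 were found per Nnat count at 4 weeks and between 5.65 and 8.29 at 6. The ratio was 8.02 to 15.9 in 8-week mice, 8.64 to 9.54 in 10-week mice and 8.49 to 15.7 in 12-week mice. The ranges at 4 and 12 weeks were apart, and those from 8 weeks on overlapped. Trpm5 per Nnat went from 0.762 to 1.13 at 4 weeks to 2.24 to 3.43 at 12, and Npy per Nnat from 0.496 to 0.742 to 1.27 to 1.83. Against Gjd2, Syt4 went from 0.428 to 0.609 at 4 weeks to 0.699 to 0.736 at 12, and Trpm5 from 0.337 to 0.365 to 0.413 to 0.696. Each of these 5 ratios had an exact two-sided permutation p of 0.1 between 4 and 12 weeks, the smallest that 3 mice against 3 allow. Nnat and Gjd2 had the largest decreases in these same data, so ratios over them were likely to rise, and this p is no separate support. Also over Gjd2, Esrrg had an exact permutation p of 0.1. Ucn3 per Gjd2 overlapped, at 1.49 to 1.97 and 1.70 to 2.33 (exact permutation p = 0.2). The ratio of Ucn3 to Npy overlapped throughout, at 6.81 to 8.80 and 6.69 to 8.61 (exact permutation p = 0.7).

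**Figure D4:**
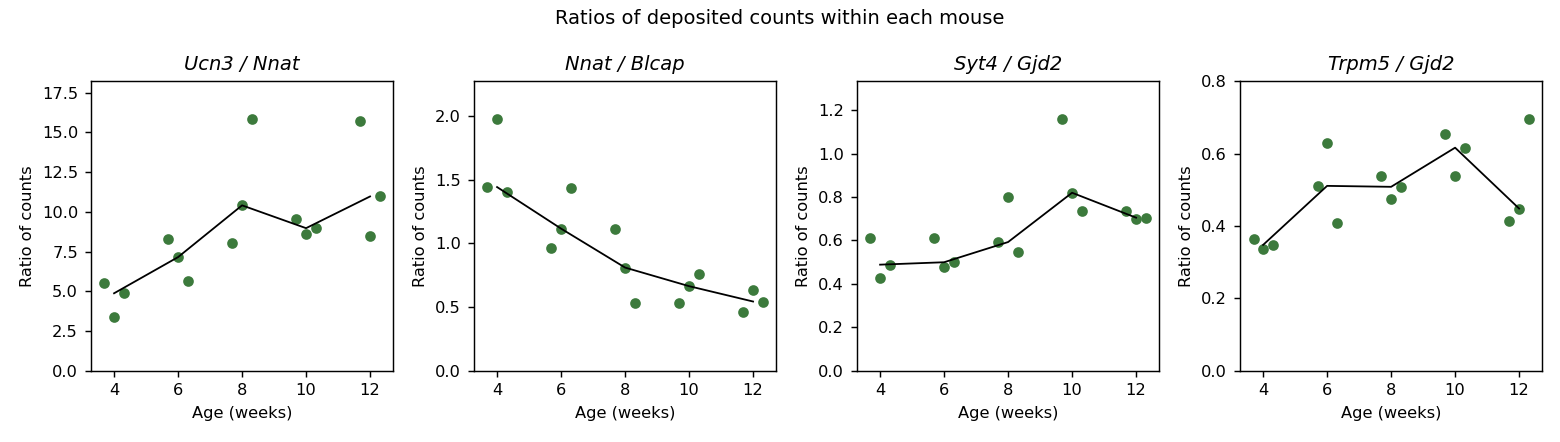
Ratios of deposited counts within each mouse (vertical axis, from 0) against age in weeks. Points are single mice, 3 at each age, and the line joins the medians. Ucn3 over Nnat rises from a median of 4.88 at 4 weeks to 11.0 at 12, and Nnat over Blcap falls from 1.44 to 0.544.

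Relatives and partners of the members had their own courses between 4 and 12 weeks. Over all genes on the TMM scale, 27.2% were called lower and 26.3% higher in that comparison. Of the receptors of urocortin 3 and its family, Crhr1 (0.54, adjusted p = 0.16) and Crhr2, the receptor for urocortin 3 on delta cells (-0.28, adjusted p = 0.24), were tested and 0 were called. The other 4 genes of that list did not pass the filter. In the NPY family, Pyy (-1.76, adjusted p = 2.8e-04) and Ppy (-1.78, adjusted p = 6.6e-04), hormones of other islet cells, were called lower and the receptor Npy1r higher (1.31, adjusted p = 0.017). Both hormones were called lower on the endocrine scale as well, and the median of the 3 genes there was -0.92.

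Of the 11 other synaptotagmins, 9 were called lower and 0 higher, led by Syt5 (-1.41, adjusted p = 1.3e-04) and Syt9, a calcium sensor of insulin release (-0.84, adjusted p = 4.6e-04). On library totals 6 were called lower. On the endocrine scale 4 were called higher and 1 lower, next to 80.3% of all genes called higher and 0.876% lower. Of 9 connexins and pannexins, 4 were called higher, with the smallest adjusted p for Panx1 (1.54, adjusted p = 0.0011) and Gja5, an endothelial connexin (1.80, adjusted p = 0.024), and 1 lower, Panx2 (-0.42, adjusted p = 0.023). On library totals 6 were called higher and 0 lower, so the call of Panx2 depended on the scale.

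Among the TRPM channels, Trpm4, the closest paralog of Trpm5, had a log2 fold change of -0.02 (adjusted p = 0.91). Trpm1 (5.25, adjusted p = 0.0012), Trpm2 (1.30, 0.0028) and Trpm6 (1.45, 0.0051) were called higher and Trpm3 lower (-0.38, adjusted p = 0.048, a call absent on library totals). Trpm1 was near the floor in young mice, with a mean of 0.025 CPM at 4 weeks and 0.035 at 6, so the size of its change is uncertain. For the partners of Esrrg, Esrra (0.56, adjusted p = 0.0042), Ppargc1b (0.98, adjusted p = 0.0017) and Nrip1 (0.42, adjusted p = 0.0046) were called higher and Perm1, a regulator known from muscle, lower (-0.34, adjusted p = 0.045, a call absent on library totals). Of the insulin-like growth factor genes tested, 5 of 11 were called higher and 1 lower. Igf1 (2.99, adjusted p = 2.6e-04) and Igfbp4 (2.31, adjusted p = 1.7e-04) rose, and Igf2bp2, an RNA-binding protein for Igf2 mRNA, fell by 1.74 (adjusted p = 1.2e-04). The receptors Igf1r (-0.28, adjusted p = 0.060) and Igf2r (-0.01, adjusted p = 0.90) were not called.

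Genes that accompany the members in beta cell maturation gave a wider view. Of 12 other genes of mature beta cells, 9 were called lower and 0 higher on the TMM scale, with a median of -0.87. Of all genes, 27.2% were called lower and 26.3% higher on that scale. The 9 were led by Ero1lb, an oxidase of proinsulin folding (-1.01, adjusted p = 3.4e-04), and the potassium channel gene Kcnk16 (-1.19, adjusted p = 4.4e-04). On library totals 2 of these mature genes were called higher and 9 lower. Of 12 other genes of immature beta cells, 6 were called higher and 4 lower. Among those lower was Fev, a transcription factor of endocrine progenitors (-1.16, adjusted p = 4.2e-04). Those higher were led by Pdgfra (3.45, adjusted p = 4.7e-04) and Rest (2.72, adjusted p = 4.8e-04), which mesenchymal and other non-endocrine cells also express. The mesenchymal and leukocyte markers rose in the same samples, and which cells the Pdgfra and Rest transcripts came from was not tested. These counts of 6 and 4 were the same on library totals. On the endocrine scale they were 7 and 1, next to 80.3% of all genes called higher and 0.876% lower.

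The genes most like each member were read from Pearson correlations of log2 CPM over the 15 mice, with no test. Prune2, Acly, which makes cytosolic acetyl-CoA, and Morn2 were most like Ucn3 (r = 0.97, 0.97 and 0.96). Gm15706, Plppr2 and Pax6, the islet transcription factor, were most like Gjd2 (0.99, 0.99 and 0.98), and Mpp2, Ube2u and Mical2 most like Nnat (0.98, 0.97 and 0.97). A930018M24Rik led for Trpm5 (0.97), before Fn3k and Osbpl1a (both 0.93), and it was among the 3 most like it after the age means were subtracted too (0.93). Lman2, Fam161b and Tspyl2 came closest to Syt4 (0.97, 0.97 and 0.96), and Kcnma1, Terf2 and Angel1 to Esrrg (0.93, 0.93 and 0.92). For Npy these were Fgd4, Gpd2 and AI597479 (0.94, 0.93 and 0.93), and for Igf2 Ltv1, Rbm7 and Eef1e1 (0.93, 0.88 and 0.87).

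With the age means subtracted, the leading genes changed for most members. They were Snrpn, Lrp3 and Slc26a8 for Ucn3 (0.96, 0.95 and 0.95), Zfp523, Tmco3 and Grik5 for Gjd2 (0.98, 0.98 and 0.97), and Nptx1, Zmynd11 and Dpp10 for Nnat (0.95 each). Papss1, Pgm3 and Ibtk were closest to Syt4 (0.95, 0.95 and 0.94), Abca4, Angel1 and Ppil6 to Esrrg (0.93, 0.91 and 0.90), and Zfp108 and Dnajc24 led for Trpm5 (both 0.95). Zfp558, Prkaa2 and Zfp24 were closest to Npy (0.91, 0.90 and 0.88), and Zmynd19, Prmt7 and F2rl3 to Igf2 (0.86 each). Angel1 and A930018M24Rik were thus found both ways for their members.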

How the data were processed

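Islet RNA of 15 NOD females was poly(A)-selected and sequenced in pairs, and the authors trimmed, aligned and counted reads with default settings in CLC Genomics Workbench. The build is mm10 per the submitters' processing notes. Strand use is not given in the sources used here. The deposited counts are whole reads per gene, with no normalization, and sum to 25407492 to 41616275 per mouse (median 28004882). The deposited TPM and RPKM, which the authors computed within each sample, served only for the order of levels. The scaled CPM columns the authors deposited, treated as a score, were not tested.

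Genes were kept by filterByExpr, scaled by TMM and fitted over all 15 mice with edgeR 4.0.16 (glmQLFit and glmQLFTest, R 4.3.3), in place of the exact-type test of the study, with Benjamini-Hochberg adjustment. Log2 CPM used a prior count of 2. DESeq2 1.42.0, edgeR's exact test and the other alternatives are in the closing part. Python 3.11.15 and matplotlib 3.10.9 drew the figures. Promoters are from RefSeq. Mice with the same replicate number were not treated as paired. Replicates are different mice. Between the 15 pairs of the same age, chi-square per degree of freedom was 15.9 to 127, so no pair was a duplicate.

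The members, gene lists and tests were chosen with earlier results of these data known. By the naming rule, every member is given, other lists by counts and the called genes or, above 4, by those with the smallest adjusted p in each direction, with direct partners or paralogs, and the 3 genes most correlated with each member. Genes shown to illustrate a list beyond that were chosen after their values were seen. A gene that the rule would name is not reported here.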

Additional observations from a re-analysis of the deposited data

How the results depend on the processing

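The members called between 12 and 4 weeks were 4. They were 3 to 5 with each mouse left out in turn and 0 with the leukocyte marker mean as a covariate. Between 10 and 8 weeks the count of 3 became 0 with that covariate, 0 with these ages fitted alone, 6 with DESeq2 (4096 genes in all against 2776) and 0 to 6 with each mouse left out. For any age the 8 called became 5 on library totals, 0 with the covariate and 5 to 8 with a mouse left out. Relative to the endocrine genes 6 became 3, chosen after seeing the data, with other mature beta cell genes as the reference and 4 to 6 with a mouse left out. The cause of these moves was not tested. In the main fit 27.2% of all genes were called lower and 26.3% higher between 12 and 4 weeks, and 56.0% for any age. Relative to the endocrine genes 80.3% were called higher and 0.876% lower. Shares under the alternatives are mostly not set beside these counts, which show only how far the calls of the members moved. In the steps from 4 to 6, 6 to 8 and 10 to 12 weeks the count was 0 under each alternative run. Of all alternative values 47 lost a call, 16 gained one, 15 counts moved and 469 did none of these. No value called in either fit changed sign, whereas uncalled ones could: Trpm5 between 12 and 4 weeks ran from -0.52 to 0.32.

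Mice of the same replicate number deviated together in 4 of 15 pairs (correlations -0.67 to 0.64), so the numbers did not pair the mice. With the replicate block, 5 members were called between 12 and 4 weeks, 0 members and 0 genes between 10 and 8 weeks, 7 for any age and 6 relative to the endocrine genes. Except between 10 and 8 weeks, the share of all genes called with the block is not given beside these counts. In that block fit the adjusted p of Ucn3 and Gjd2 between 10 and 8 weeks was 0.0549.

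An exact permutation test of 3 mice against 3 cannot go below p = 0.1. Igf2 and Esrrg rested on the fewest reads (142 to 365 and 223 to 585 per mouse).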
